A study of Mus musculus with 31 samples.

Results

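The 10 genes described here take part in glucose use: the glucose transporter Slc2a1, the hexokinases Hk1 and Hk2, the phosphofructokinases Pfkp and Pfkl, the aldolase Aldoa, the pyruvate kinase Pkm, the lactate dehydrogenases Ldha and Ldhb, and the pyruvate dehydrogenase kinase Pdk4. They were chosen by gene symbol, which found 11 of the 55487 rows of the table, since Aldoa is entered under 2 gene identifiers. The second Aldoa entry held 64 counts over all libraries and did not pass the filter on low counts, so the 10 main entries are described, all of which passed. The study measured messenger RNA in 31 kidney libraries from males of a B6 background, to ask whether less Nbl1 alters the kidney's response to cisplatin, a platinum drug that damages the renal tubule. The groups were 8 libraries labelled HET for Nbl1 and cisplatin, 7 labelled HET and PBS, the buffer, 8 labelled wild type (WT) and cisplatin and 8 labelled WT and PBS. Mice were dosed for 4 weeks from the age of 8 weeks, and kidneys were taken 3 days later, at a stated age of 11 weeks, figures that do not add up as they stand. The sources used here give neither a dose of cisplatin nor the type of Nbl1 mutation.

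Glycolysis splits glucose into pyruvate, which lactate dehydrogenase turns into lactate or which enters the mitochondrion and is oxidised through pyruvate dehydrogenase. Several steps have isozymes that differ by tissue, and the proximal tubule of the kidney is known for making glucose and burning fatty acids and lactate rather than for using glucose, while the distal nephron is the more glycolytic part. Pdk4 and its relatives phosphorylate pyruvate dehydrogenase and so switch it off.

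Each library carries its own sample number, but the labels do not say that each came from a separate mouse, so the p-values measure the spread between these libraries, which may be technical. The total was 26869034 to 31915040 counts for HET cisplatin libraries and 29231845 to 36696042 counts for HET PBS libraries. It was 24650858 to 28862731 counts for WT cisplatin libraries and 29845567 to 37301170 counts for WT PBS libraries. The first principal component of the 2000 most variable genes carried 73.5% of their variance and separated cisplatin from PBS libraries, with HET cisplatin 6 (15.9) and WT cisplatin 6 (25.2) nearest to the PBS side. Nbl1 itself went against the label in 5 libraries: HET PBS 1 and 6 and HET cisplatin 3 and 4 read between 0.106 and 1.08 CPM (counts scaled to 1000000 per library), below the other HET libraries, and WT PBS 6 read 3.71 CPM, inside the range of HET PBS. HET cisplatin 7 and 8, at 10.8 and 13.9 CPM, also lay above the lowest WT cisplatin library (10.7). Proximal tubule markers (8 of 8 lower in each genotype) summed to 1213 to 6815 CPM in HET cisplatin against 17469 to 19878 in HET PBS, and 1257 to 7186 in WT cisplatin against 17525 to 20300 in WT PBS, while injured-tubule markers (6 of 6 higher) summed to 2501 to 6325 CPM in HET cisplatin against 452 to 591 in HET PBS, and 4919 to 6237 in WT cisplatin against 383 to 539 in WT PBS. Red cell markers (5 of 5 lower) summed to 0.466 to 25.4 CPM in HET cisplatin against 301 to 703 in HET PBS, and 0.592 to 25.5 in WT cisplatin against 275 to 1680 in WT PBS, and skeletal muscle markers stayed at or under 1.08 CPM in every library, with Myh4 at 0 in HET PBS and in both WT groups and Tnnt3 at 0 in HET PBS. Fibroblast and pericyte markers were higher (5 of 5 in HET and 4 of 5 in WT) and summed to 208 to 644 CPM in HET cisplatin against 197 to 299 in HET PBS, and 300.5 to 517 in WT cisplatin against 176 to 282 in WT PBS. Of 7 macrophage and monocyte markers 5 were higher and 1 lower in HET and 6 higher and 1 lower in WT, with sums of 42.5 to 178 CPM in HET cisplatin against 85.4 to 115 in HET PBS, and 103 to 255 in WT cisplatin against 85.8 to 103 in WT PBS. Distal convoluted tubule markers were lower (3 of 3 in each genotype) and summed to 149.7 to 424 CPM in HET cisplatin against 934 to 1020.1 in HET PBS, and 228 to 447 in WT cisplatin against 899.6 to 1059 in WT PBS. Adipocyte markers were higher (3 of 3 tested in HET and 2 of 3 in WT) and summed to 5.71 to 83.8 CPM in HET cisplatin against 1.44 to 28.5 in HET PBS, and 12.6 to 139 in WT cisplatin against 0.702 to 30.2 in WT PBS. Endothelial markers were lower (5 of 5 in each, medians of −0.33 in HET and −0.30 in WT) with the TMM scaling (trimmed mean of M values) used here, but with scaling by library totals 2 were higher and 2 lower in each. Of 4 thick ascending limb markers, 3 were lower and 1 higher in each. Their sum was 962 to 3531 CPM in HET cisplatin against 4594 to 4997 in HET PBS. In WT it was 1431 to 3300 against 4471 to 5211. Of 5 collecting duct principal cell markers, 2 were higher in HET and 3 in WT, and 0 lower. With library totals 1 thick ascending limb marker was lower and 1 higher in each, and all 5 collecting duct markers were higher. The part of these shifts in the results that follow was not tested, and in whole kidney fewer cells of a type and less RNA per cell cannot be told apart.

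Of the 10 genes, 5 were higher and 3 lower under cisplatin in HET kidneys, and 5 were higher and 2 lower in WT kidneys. Slc2a1, Hk2, Pkm, Pfkp and Hk1 were higher in each genotype and Ldha and Ldhb lower in each, Pdk4 was past the threshold in HET kidneys alone, and Aldoa and Pfkl did not pass in either. Calls are adjusted p under 0.05 from edgeR's quasi-likelihood test over 19268 genes, of which 59.0% passed in HET (5981 higher, 5393 lower) and 63.2% in WT (6469 higher, 5705 lower). The 8 calls in HET and 7 in WT among 10 genes are read against those shares, as are the counts for the gene lists below. The median log2 fold change of the 10 was 0.22 in HET and 0.17 in WT, against 0.06 over all tested genes in each. For 7 of the 10 the cisplatin and PBS libraries did not overlap in either genotype, 5 above and 2 below, where 11.0% of all genes lay above and 14.9% below in HET, and 14.4% above and 17.4% below in WT. With scaling by library totals in place of TMM, 62.2% of genes were higher and 12.5% lower in HET, and 61.4% higher and 14.9% lower in WT, and Ldha alone of the 10 was lower in each genotype. Leaving out WT cisplatin 6 under TMM brought Aldoa and Pdk4 past the threshold in WT kidneys, which made 4 lower genes there.

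**Figure D1:**
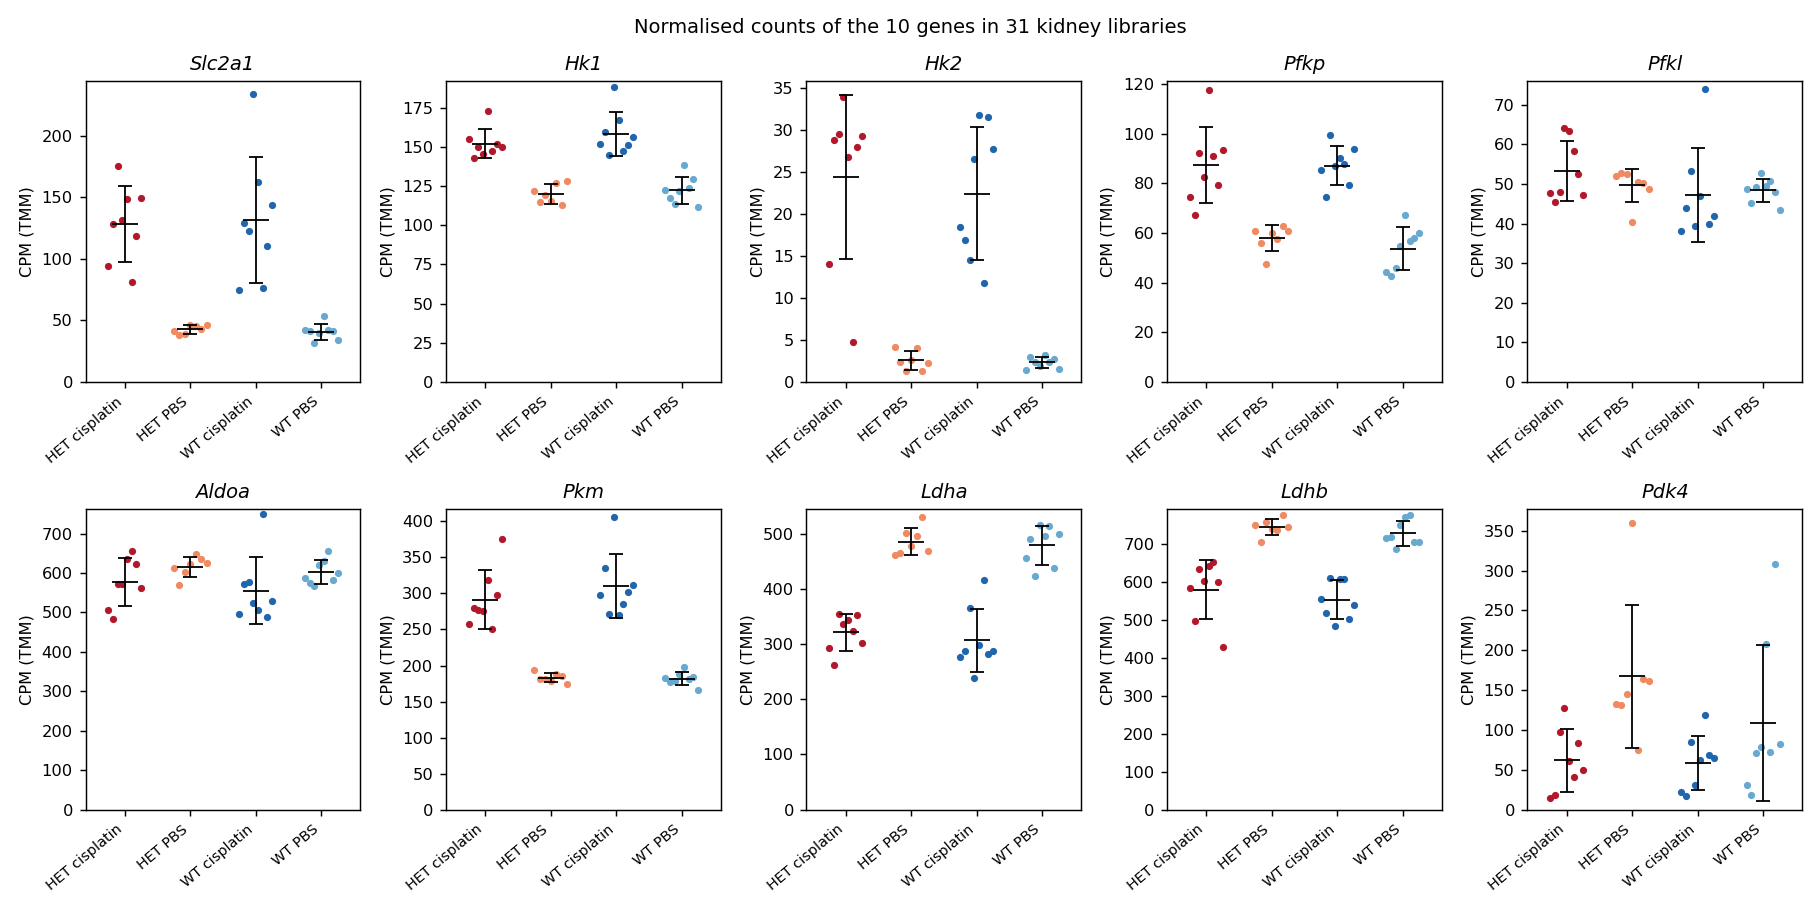
CPM (with TMM scaling, linear axes from 0) of the 10 genes in each library, by group, with the group mean and SD in black. Slc2a1, Hk2 and Pkm sit higher in every cisplatin library than in any PBS library of the same genotype, and Ldha and Ldhb lower, while the Pdk4 groups overlap.

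Promoters of all 10 genes were in the RefSeq table of GRCm38.p6 (15 promoters). The 250 bases before the start are shown for the 4 genes the account turns on, the transporter and hexokinase that changed most and both lactate dehydrogenases, each 5′ to 3′ on the gene's strand. Capitals mark ACGTG or GCGTG on either strand, the core of the element bound by hypoxia-inducible factor, and CACGTG, the E box, which holds ACGTG on both of its strands. The windows lie at chr4:119108495-119108744 (plus strand) for Slc2a1, chr6:82774455-82774704 (minus) for Hk2, chr7:46845554-46845803 (plus) for the first Ldha promoter and chr6:142507958-142508207 (minus) for Ldhb.
Slc2a1: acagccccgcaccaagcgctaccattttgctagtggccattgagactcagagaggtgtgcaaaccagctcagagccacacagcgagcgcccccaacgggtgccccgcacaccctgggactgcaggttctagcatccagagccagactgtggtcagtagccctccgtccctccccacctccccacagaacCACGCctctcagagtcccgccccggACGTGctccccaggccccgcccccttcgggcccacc
Hk2: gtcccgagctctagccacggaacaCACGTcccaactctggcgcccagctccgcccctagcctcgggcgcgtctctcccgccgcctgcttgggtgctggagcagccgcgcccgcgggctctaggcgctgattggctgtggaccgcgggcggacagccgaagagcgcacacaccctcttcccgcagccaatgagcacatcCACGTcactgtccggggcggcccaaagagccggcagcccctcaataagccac
Ldha: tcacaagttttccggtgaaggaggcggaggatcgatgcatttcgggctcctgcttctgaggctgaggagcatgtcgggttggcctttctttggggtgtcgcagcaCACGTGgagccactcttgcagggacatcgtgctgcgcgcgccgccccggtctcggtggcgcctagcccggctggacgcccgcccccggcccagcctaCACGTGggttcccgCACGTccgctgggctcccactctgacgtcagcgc
Ldhb: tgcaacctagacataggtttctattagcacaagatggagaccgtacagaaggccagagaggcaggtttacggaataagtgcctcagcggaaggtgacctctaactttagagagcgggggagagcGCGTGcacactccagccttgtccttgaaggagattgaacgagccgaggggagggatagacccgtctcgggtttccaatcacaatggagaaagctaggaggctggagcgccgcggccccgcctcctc
ACGTG or GCGTG was found in 12 of the 15 promoters, against 38.6% of all 32851 promoters in the table. Over the table the shares were 16.6% for ACGTG, 28.2% for GCGTG and 6.02% for CACGTG. The 12 include 2 Aldoa windows that overlap and share 1 ACGTG site. Each of the 10 genes had a match in at least 1 promoter, a count by gene for which no share over all genes was computed. The first promoter of Ldha, which was lower under cisplatin, held 5 ACGTG matches. Each of its 2 E boxes was counted on both strands, so the matches outnumber the sites. Slc2a1 and Hk2, which were higher, held 2 matches each, at separate sites. Ldhb held 1 GCGTG.

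Slc2a1 encodes GLUT1, the transporter that carries glucose into many cell types down its gradient. Slc2a1 (ENSMUSG00000028645) lies on chromosome 4, bases 119108711 to 119137983 of GRCm38, plus strand. Its level ran from 81.2 through a median of 130 to 175 CPM in HET cisplatin, 38.1 through 43.2 to 46.4 in HET PBS, 74.9 through 126 to 234 in WT cisplatin and 31.6 through 41.0 to 53.6 in WT PBS. Every cisplatin library stood above every PBS library of its genotype, and the cisplatin groups were the more spread. The log2 fold change was 1.59 (SE 0.18, adjusted p 7.61e-09) in HET and 1.70 (SE 0.17, adjusted p 6.29e-10) in WT, 3.00-fold and 3.24-fold higher. An antisense gene, Gm12868, shares exon bases with Slc2a1, and it read at most 0.0641 CPM in any library. The sources used here do not say whether reads were counted by strand.

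The other glucose carriers moved in both directions. Of 8 tested, 1 was higher in each genotype, with medians of −0.17 in HET and −0.41 in WT. Over all tested genes the median was 0.06 in each, and 59.0% passed in HET and 63.2% in WT. The calls among the carriers were no more frequent than that. Slc2a9, known as a urate carrier, was higher in both genotypes (log2 fold change 1.12 in HET and 1.20 in WT), and Slc5a2, which encodes SGLT2 of the early proximal tubule, was lower, with a log2 fold change of −1.83 in HET and −2.38 in WT. Slc5a2 is also among the proximal tubule markers summed above, so its fall is not a separate observation. Slc2a12 and the insulin-responsive Slc2a4 were lower in both, and Slc2a5, a fructose carrier, was lower in WT alone, which made 3 lower in HET and 4 in WT. Under library totals the counts were 4 higher and 2 lower in HET and 2 higher and 2 lower in WT, Slc5a2 and Slc2a12 lower in each. Slc2a2, which encodes GLUT2, the exit route for glucose from proximal tubule cells, averaged 231 ± 95.8 CPM in HET cisplatin (SD, n = 8), 203 ± 32.2 in HET PBS (SD, n = 7), 174 ± 83.1 in WT cisplatin (SD, n = 8) and 211 ± 16.8 in WT PBS (SD, n = 8). It did not pass the threshold in either genotype, at 0.19 in HET and −0.28 in WT, and was higher in HET under library totals (0.57).

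Hk2, the inducible hexokinase of muscle and tumours, had the largest fold change of the 10. Hk2 (ENSMUSG00000000628) lies on chromosome 6, bases 82725025 to 82774454 of GRCm38, minus strand. It read 4.74 through a median of 28.4 to 33.9 CPM in HET cisplatin, 1.27 through 2.37 to 4.15 in HET PBS, 11.7 through 22.5 to 31.8 in WT cisplatin and 1.37 through 2.38 to 3.24 in WT PBS. No PBS library reached a cisplatin library, although HET cisplatin 6, at 4.74 CPM, lay just above the highest HET PBS library. The log2 fold change was 3.25 (SE 0.33, adjusted p 7.07e-10) in HET and 3.27 (SE 0.32, adjusted p 1.68e-10) in WT, 9.51-fold and 9.67-fold higher.

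Hk1, the housekeeping hexokinase, changed little by comparison. Hk1 (ENSMUSG00000037012) lies on chromosome 10, bases 62268855 to 62379908 of GRCm38, minus strand. Its CPM ran from 143 through 150 to 173 in HET cisplatin, 113 through 119 to 128 in HET PBS, 145 through 154 to 188 in WT cisplatin and 111 through 122 to 139 in WT PBS. The groups did not overlap, and the rise was 1.27-fold in HET (log2 0.34, SE 0.054, adjusted p 2.52e-06) and 1.29-fold in WT (log2 0.37, SE 0.052, adjusted p 2.63e-07). The antisense gene Hk1os, which shares exon bases with Hk1, was at most 1.19 CPM.

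Per length, as deposited TPM (length-scaled transcript abundance that sums to 1000000 in a library), Hk1 remained the main hexokinase in all groups. It made up 85.5% ± 4.14 (SD, n = 8) of summed hexokinase TPM in HET cisplatin, 95.4% ± 1.13 (SD, n = 7) in HET PBS, 86.3% ± 2.13 (SD, n = 8) in WT cisplatin and 95.4% ± 0.954 (SD, n = 8) in WT PBS. Hk2 supplied 9.22% ± 3.71 in HET cisplatin, 1.82% ± 0.902 in HET PBS, 8.98% ± 2.43 in WT cisplatin and 1.44% ± 0.822 in WT PBS, with the same n. Of 3 other hexokinases tested, 1 was higher in each genotype and 0 were lower: Hkdc1, a hexokinase domain protein, with a log2 fold change of 1.51 in HET and 1.14 in WT. Under library totals Hk3 and Adpgk were higher as well.

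Pfkp and Pfkl encode the platelet and liver forms of phosphofructokinase, the committed step of glycolysis. Pfkp (ENSMUSG00000021196) lies on chromosome 13, bases 6579768 to 6648777 of GRCm38, minus strand. It read 67.1 through 86.8 to 117 CPM in HET cisplatin, 47.5 through 60.1 to 62.8 in HET PBS, 74.4 through 87.2 to 99.3 in WT cisplatin and 42.8 through 55.7 to 67.2 in WT PBS. Its groups were apart by a small gap, and it was higher by a log2 of 0.59 in HET (SE 0.098, adjusted p 5.45e-06) and 0.70 in WT (SE 0.094, adjusted p 1.36e-07). Pitrm1, a mitochondrial peptidase gene on the other strand that shares exon bases with Pfkp, was lower under cisplatin (log2 −0.45 in HET and −0.58 in WT).

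Pfkl (ENSMUSG00000020277) lies on chromosome 10, bases 77986947 to 78010083 of GRCm38, minus strand. It overlapped between treatments, with 45.5 through 50.2 to 64.0 CPM in HET cisplatin, 40.5 through 50.5 to 52.7 in HET PBS, 38.2 through 42.9 to 74.1 in WT cisplatin and 43.4 through 48.9 to 52.7 in WT PBS. The log2 fold change was 0.10 (95% interval −0.11 to 0.32, adjusted p 0.406) in HET and −0.036 (95% interval −0.24 to 0.17, adjusted p 0.773) in WT, and under library totals it was higher in each, by 0.50 and 0.35. Pfkm, the muscle form, was lower, at −0.81 in HET and −1.004 in WT and also lower under library totals. By TPM, Pfkp made up 54.0% ± 4.51 of the 3 forms in HET cisplatin (SD, n = 8), 39.0% ± 3.51 in HET PBS (SD, n = 7), 55.9% ± 4.14 in WT cisplatin (SD, n = 8) and 37.3% ± 4.01 in WT PBS (SD, n = 8), while Pfkm made up 16.4% in HET cisplatin, 31.5% in HET PBS, 16.1% in WT cisplatin and 33.7% in WT PBS. The mean share of Pfkl was 28.1% to 29.6% in the 4 groups.

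The genes that set fructose 2,6-bisphosphate, the activator of phosphofructokinase, moved both ways. Among 5 tested, Pfkfb1 and Tigar were higher in each genotype, Pfkfb3 was higher in WT alone, and Pfkfb2 was lower in each (log2 −0.20 in HET and −0.19 in WT). Tigar, a p53 target that lowers fructose 2,6-bisphosphate, changed by a log2 of 0.34 in HET and 0.38 in WT. All 5 were higher in each genotype under library totals, Pfkfb2 included.

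Aldoa, the aldolase of muscle and most other tissues, showed no change past the threshold. Aldoa (ENSMUSG00000030695) lies on chromosome 7, bases 126795234 to 126800751 of GRCm38, minus strand. It read 484 through 572 to 657 CPM in HET cisplatin, 570 through 624.02 to 647 in HET PBS, 488 through 526.001 to 749 in WT cisplatin and 566 through 593 to 655 in WT PBS. These ranges overlapped, and WT cisplatin 6 was the highest library of all. The log2 fold change was −0.10 (SE 0.073, adjusted p 0.259) in HET and −0.12 (SE 0.071, adjusted p 0.152) in WT, and without WT cisplatin 6 it was −0.19 (adjusted p 0.00459) in WT, whereas under library totals it was 0.30 in HET and 0.28 in WT, higher past the threshold. Fam57b, which shares exon bases with Aldoa on the other strand, averaged at most 0.714 CPM in any group.

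Down the middle of the pathway, from the isomerase to enolase, 11 further genes were tested, of which 2 were higher and 6 lower in HET and 2 higher and 7 lower in WT, with medians of −0.47 and −0.56. Gapdh averaged 1228 ± 188 CPM in HET cisplatin (SD, n = 8), 1725 ± 42.3 in HET PBS (SD, n = 7), 1165 ± 221 in WT cisplatin (SD, n = 8) and 1719 ± 102 in WT PBS (SD, n = 8). Pgk1, the phosphoglycerate kinase, had log2 fold changes of −0.84 in HET and −0.83 in WT. Tpi1, Pgam1, Pgam2 and Pfkm were lower in both genotypes and Gpi1 in WT alone. Eno2, the neuronal enolase, was higher by 2.37 in HET and 2.37 in WT, though Eno1 still held 97.7% of enolase TPM in HET cisplatin and 97.3% in WT cisplatin, and Eno3 was higher by 0.35 in HET and 0.45 in WT. Under library totals 5 were higher and 3 lower in HET, and 4 higher and 6 lower in WT: Pfkm, Pgk1 and Pgam2 stayed lower in both, Eno2 and Eno3 stayed higher, and Gpi1 turned higher in WT.

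Khk, the fructokinase that brings fructose into the pathway, was lower in each genotype, with a log2 fold change of −1.12 in HET and −1.41 in WT, and was also lower under library totals.

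Pkm encodes the pyruvate kinase of most tissues, and gene counts do not separate its M1 and M2 splice forms. Pkm (ENSMUSG00000032294) lies on chromosome 9, bases 59656368 to 59679375 of GRCm38, plus strand. It read 250 through 278 to 376 CPM in HET cisplatin, 174 through 182 to 193 in HET PBS, 270 through 300 to 406 in WT cisplatin and 166 through 182 to 198 in WT PBS. The lowest cisplatin library lay well above the highest PBS library in each genotype. Pkm was 1.59-fold higher in HET (log2 0.67, SE 0.077, adjusted p 6.95e-09) and 1.70-fold higher in WT (log2 0.77, SE 0.074, adjusted p 1.49e-10). Its counts were not whole numbers in any of the 31 libraries, and Gm49759, an unclassified transcript on the same strand that shares exon bases with it, had 21.7 ± 5.23 CPM in HET cisplatin (SD, n = 8), 8.18 ± 1.77 in HET PBS (SD, n = 7), 24.9 ± 9.57 in WT cisplatin (SD, n = 8) and 9.30 ± 1.46 in WT PBS (SD, n = 8).

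Pklr, the liver and tubule pyruvate kinase, was higher as well, by 1.01 on the log2 scale in HET (SE 0.20, adjusted p 6.09e-05) and 0.81 in WT (SE 0.19, adjusted p 0.000444). The share of Pkm in pyruvate kinase TPM was 82.4% ± 5.65 in HET cisplatin (SD, n = 8), 83.9% ± 1.44 in HET PBS (SD, n = 7), 85.8% ± 5.48 in WT cisplatin (SD, n = 8) and 84.6% ± 2.64 in WT PBS (SD, n = 8). The summed TPM of both was 140.5 in HET cisplatin, 62.0 in HET PBS, 143 in WT cisplatin and 62.4 in WT PBS, with SDs of 3.11 to 15.95.

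**Figure D2:**
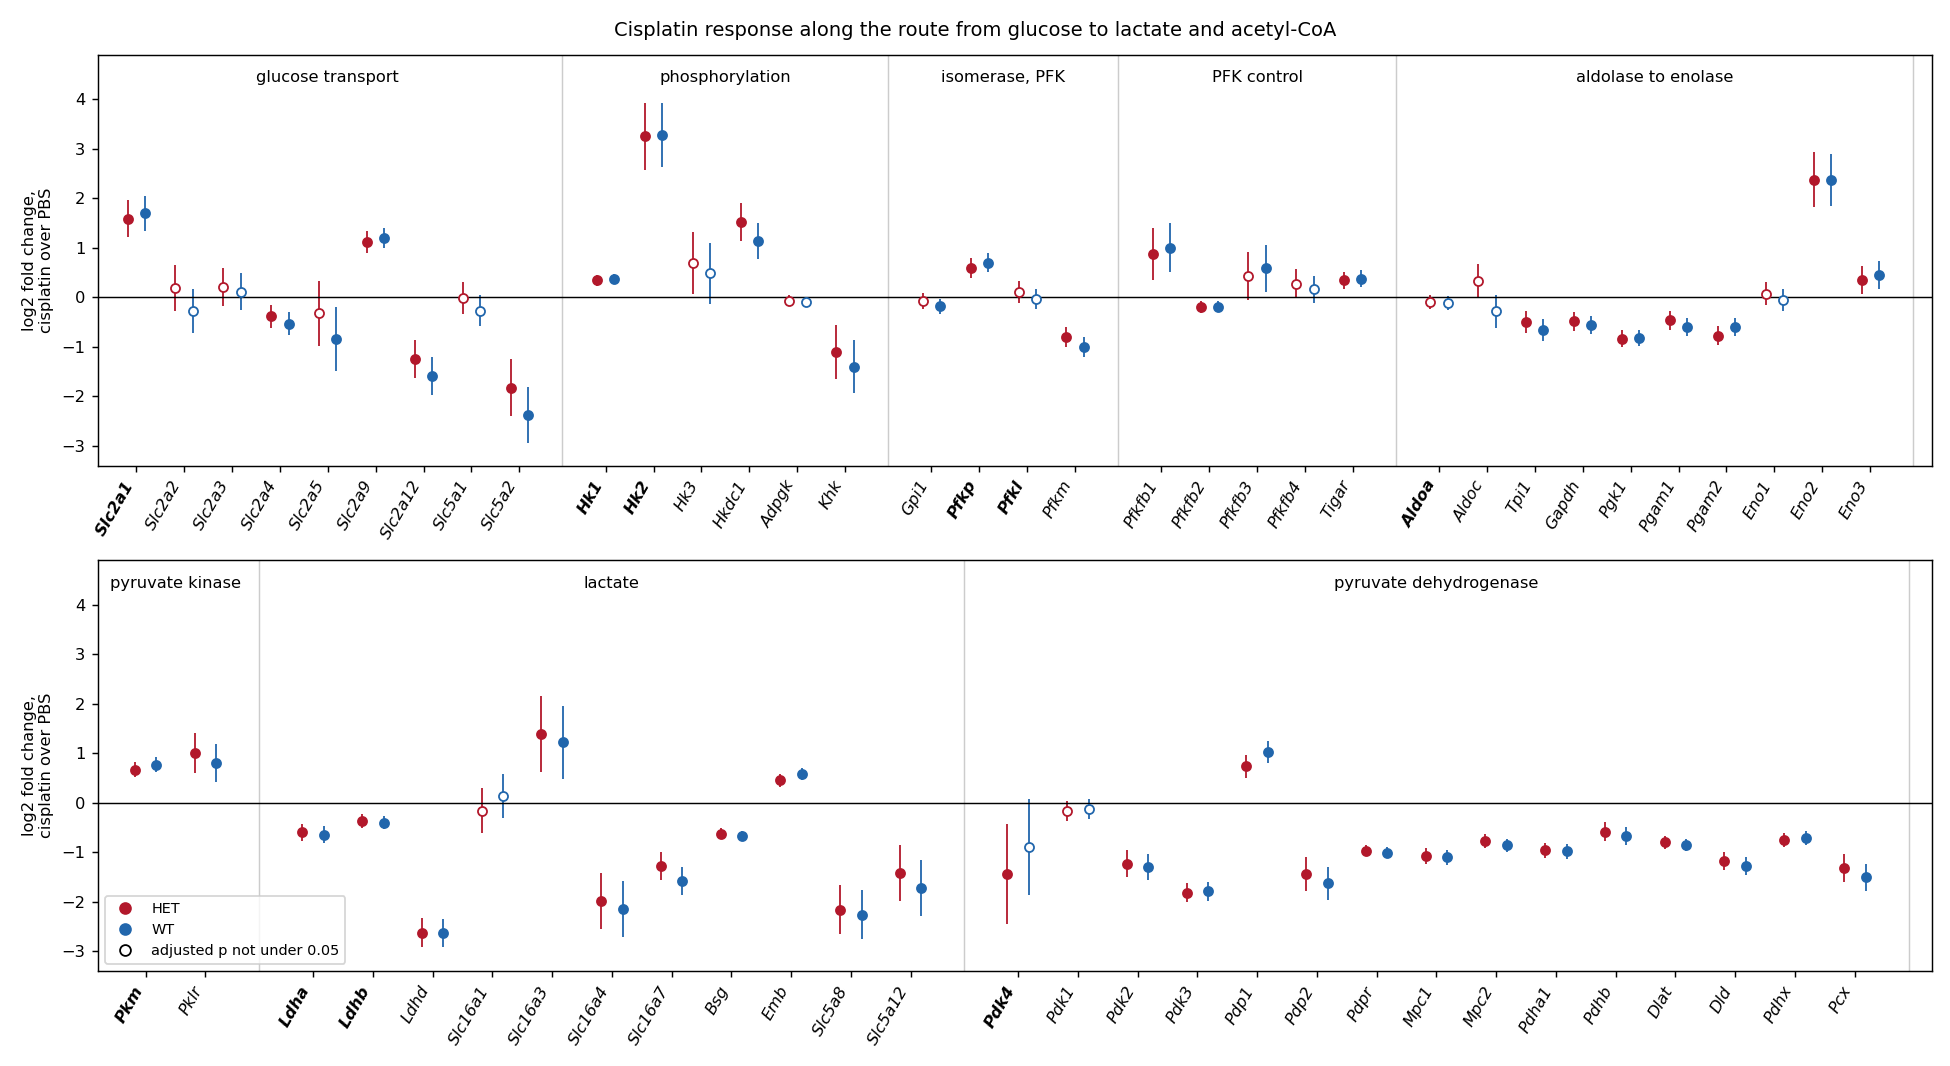
Log2 fold changes, cisplatin over PBS, with 95% intervals, for genes ordered from glucose uptake to lactate and pyruvate oxidation, HET left of WT. The 10 genes are in bold, and open points did not pass the threshold. Slc2a1, Hk2, Pkm and Pklr stand above 0, and most pyruvate dehydrogenase and lactate genes below it.

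Lactate dehydrogenase is a tetramer of A and B subunits, with Ldha typical of muscle and Ldhb of heart and of oxidative tissue. Ldha (ENSMUSG00000063229) lies on chromosome 7, bases 46841475 to 46855627 of GRCm38, plus strand. Its level ran from 262 through 330 to 356 CPM in HET cisplatin, 463 through 478 to 531 in HET PBS, 239 through 288 to 417 in WT cisplatin and 424 through 494 to 517 in WT PBS. Ldhb (ENSMUSG00000030246) lies on chromosome 6, bases 142490249 to 142507957 of GRCm38, minus strand. Its level ran from 429 through 600.5 to 652 CPM in HET cisplatin, 707 through 744 to 776 in HET PBS, 484 through 548 to 610 in WT cisplatin and 688 through 718 to 776 in WT PBS. On the CPM scale every cisplatin library was below every PBS library for both genes, with WT cisplatin 6 closest to the PBS range for Ldha.

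Ldha was lower, at −0.60 on the log2 scale in HET (SE 0.085, adjusted p 3.93e-07) and −0.64 in WT (SE 0.082, adjusted p 4.65e-08), and was also lower under library totals, at −0.20 in HET and −0.25 in WT, while limma on log2(TPM + 1) gave −0.12 (adjusted p 0.159) in HET and −0.20 (adjusted p 0.0175) in WT. Ldhb was lower, at −0.36 (SE 0.069, adjusted p 4.07e-05) in HET and −0.40 (SE 0.067, adjusted p 5.46e-06) in WT, but under library totals its values were 0.038 in HET and −0.0045 in WT and did not pass. The median of all tested genes stood at 0.46 in HET and 0.45 in WT under library totals, against 0.06 in each under TMM. Relative to that median, Ldha stood at −0.66 in HET and −0.71 in WT and Ldhb at −0.42 or −0.43 in HET and −0.46 in WT under either. Changing between these 2 scalings moves all genes by nearly the same amount, so this likeness is built in and is no test. With limma on log2(TPM + 1) the distances from the median were smaller. There Ldha stood at −0.41 in HET and −0.48 in WT, and Ldhb at −0.18 in HET and −0.22 in WT.

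**Figure D3:**
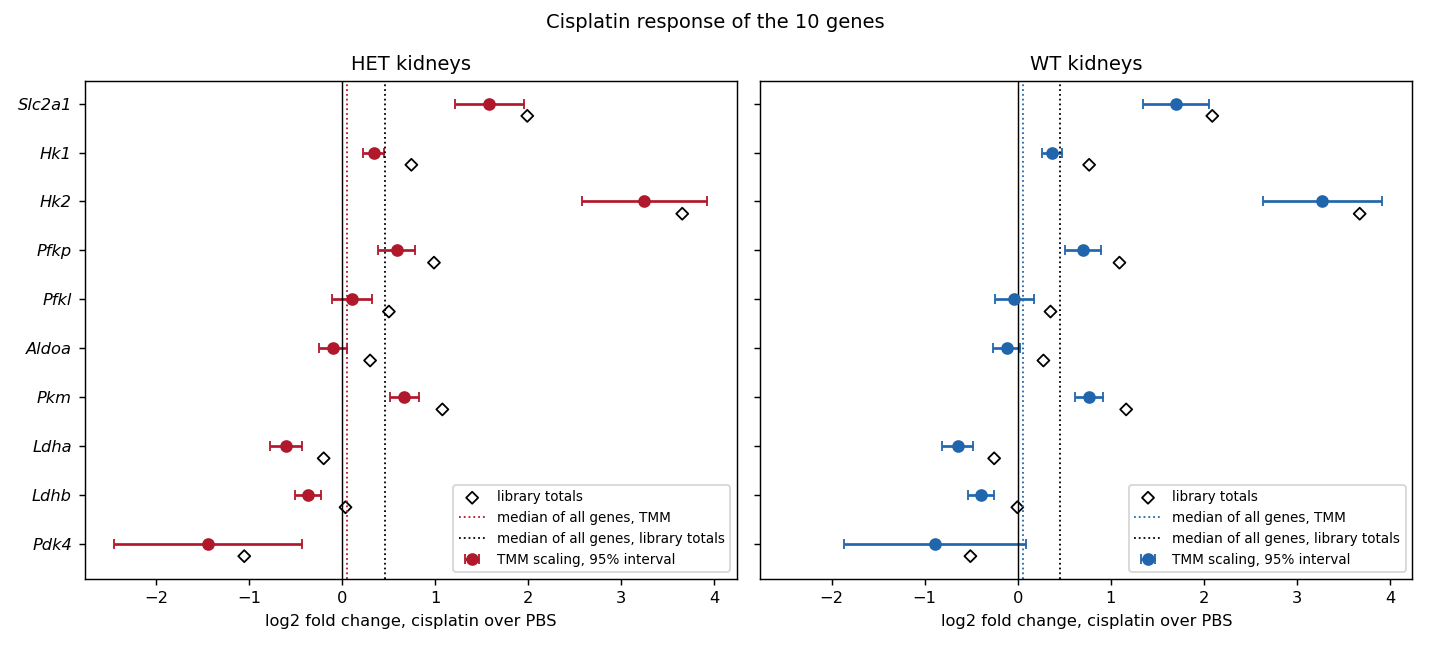
Log2 fold change, cisplatin over PBS, of the 10 genes in HET (left) and WT (right) kidneys, under TMM scaling with 95% intervals (filled points) and under library totals (open diamonds). Dotted lines mark the median of all tested genes under each scaling, 0.06 and about 0.46: Slc2a1, Hk2, Hk1, Pfkp and Pkm lie above the median under the same scaling, and Ldha, Ldhb and Pdk4 below it.

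As TPM, Ldhb held 69.8% ± 2.39 of lactate dehydrogenase transcripts in HET cisplatin (SD, n = 8), 66.3% ± 0.790 in HET PBS (SD, n = 7), 70.0% ± 2.48 in WT cisplatin (SD, n = 8) and 66.1% ± 1.15 in WT PBS (SD, n = 8). Ldhc, the testis form, was near 0 throughout. Ldhd, a mitochondrial enzyme that oxidises D-lactate, was lower, at −2.62 (SE 0.14) in HET and −2.63 (SE 0.14) in WT, with 91.0 to 202 CPM in HET cisplatin against 898 to 1070.4 in HET PBS, and 126 to 228 in WT cisplatin against 897 to 1074 in WT PBS.

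Lactate carriers were mostly lower. Of the 9 lactate transport and other dehydrogenase genes tested, 6 were lower and 2 higher in each genotype, with medians of −1.28 in HET and −1.58 in WT, and the same 6 were lower under library totals. The sodium-coupled carriers Slc5a8 and Slc5a12, which reclaim lactate from urine, changed by −2.16 and −1.41 in HET and by −2.26 and −1.72 in WT. Slc5a12 is also among the proximal tubule markers summed above, so its fall is not a separate observation. Slc16a7, Slc16a4 and Bsg, the chaperone of the Slc16a carriers, were also lower. Slc16a3, the carrier that exports lactate from glycolytic cells, was higher by 1.39 (adjusted p 0.00209) in HET and 1.22 (adjusted p 0.00402) in WT, at 2.34 ± 1.30 CPM in HET cisplatin (SD, n = 8), 0.890 ± 0.501 in HET PBS (SD, n = 7), 2.09 ± 0.841 in WT cisplatin (SD, n = 8) and 0.892 ± 0.549 in WT PBS (SD, n = 8), with overlapping groups. Emb, another chaperone, was higher in each, and Slc16a1 did not pass in either genotype, though it was higher in WT under library totals.

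Pdk4 had the largest standard errors of the 10. Pdk4 (ENSMUSG00000019577) lies on chromosome 6, bases 5483351 to 5496309 of GRCm38, minus strand. It read 15.1 through 55.8 to 127 CPM in HET cisplatin, 75.1 through 145 to 360.1 in HET PBS, 17.5 through 63.5 to 119 in WT cisplatin and 18.1 through 75.6 to 308 in WT PBS. The groups overlapped in both genotypes, and in WT the lowest library of all was a cisplatin one, just below the lowest PBS library. In HET kidneys Pdk4 was lower, at −1.44 on the log2 scale (SE 0.50, adjusted p 0.0134), a call lost without HET PBS 4, the library at 360.1 CPM (−1.13, adjusted p 0.0525), and under library totals (−1.05, adjusted p 0.0508). In WT the value was −0.89 (SE 0.48, 95% interval −1.87 to 0.08, adjusted p 0.104), and it was −0.46 (adjusted p 0.397) without WT PBS 7, the library at 308 CPM. It passed without WT cisplatin 6 (−1.12, adjusted p 0.0477), without WT PBS 2 (−1.06, adjusted p 0.0483) or with the 600 range of sample numbers as a covariate (−1.15, adjusted p 0.0181). The difference between the genotypes' responses was −0.54 (95% interval −1.94 to 0.85, adjusted p 0.947).

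Genes of pyruvate entry and oxidation were lower nearly throughout. Of 14 tested, 12 were lower and 1 higher in each genotype, with medians of −0.96 in HET and −0.99 in WT, and under library totals 12 were lower and 2 higher. Mpc1, a subunit of the mitochondrial pyruvate carrier, averaged 144 ± 21.2 CPM in HET cisplatin (SD, n = 8), 302 ± 15.5 in HET PBS (SD, n = 7), 136 ± 17.2 in WT cisplatin (SD, n = 8) and 292 ± 10.7 in WT PBS (SD, n = 8). Pdha1, the catalytic subunit of pyruvate dehydrogenase, changed by −0.96 in HET and −0.98 in WT, and Pcx, the pyruvate carboxylase of glucose synthesis, by −1.31 in HET and −1.50 in WT. The other kinases Pdk2 (−1.23 in HET and −1.29 in WT) and Pdk3 (−1.81 in HET and −1.79 in WT) were lower. Pdk1 did not pass (−0.17 in HET and −0.12 in WT) and was higher under library totals (0.23 in HET and 0.27 in WT), and Pdp1, a phosphatase that switches the enzyme back on, was higher by 0.74 in HET and 1.02 in WT. Pdk1 held 16.1% ± 3.77 of kinase TPM in HET cisplatin (SD, n = 8), 6.34% ± 0.748 in HET PBS (SD, n = 7), 16.8% ± 2.68 in WT cisplatin (SD, n = 8) and 6.95% ± 1.08 in WT PBS (SD, n = 8), and its cisplatin and PBS libraries did not overlap. Pdk2 held 50.8% of kinase TPM in HET cisplatin, 51.2% in HET PBS, 51.2% in WT cisplatin and 57.1% in WT PBS, and Pdk4 held 20.9% in HET cisplatin, 24.4% in HET PBS, 19.9% in WT cisplatin and 16.6% in WT PBS.

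The members of a list of genes that share fasting, PPAR alpha or glucocorticoid control with Pdk4 were mixed. Of 10 tested, 0 were higher and 4 lower in HET, and 1 higher and 3 lower in WT. These calls were less frequent than over all tested genes, of which 59.0% passed in HET and 63.2% in WT. The list medians were −0.28 in HET and −0.03 in WT, against 0.06 over all tested genes in each. Ppara, Ppargc1a and Cpt1a, genes of fatty acid oxidation, were lower in both genotypes, and Angptl4, an inhibitor of lipoprotein lipase, was lower in HET (−1.78, adjusted p 0.000166) and not past the threshold in WT (−0.58, adjusted p 0.166). Fkbp5, a glucocorticoid target, was higher in WT (1.002, adjusted p 0.000735). Under library totals 1 was higher and 3 lower in HET, and 6 higher and 1 lower in WT, Cpt1a being lower in each.

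Hypoxia-inducible factor is the textbook activator of Slc2a1, Hk2 and Ldha, and 12 genes of that factor and its targets outside glycolysis were read as well. In each genotype 3 were higher (Hif1a, Adm and Ankrd37) and 6 lower (Epas1, Vegfa, Egln1, Ndrg1, Car9 and P4ha1). Their medians were −0.26 in HET and −0.28 in WT, against 0.06 over all tested genes in each. Of all tested genes 59.0% passed in HET and 63.2% in WT. Vegfa, an angiogenic factor, changed by −0.83 in HET and −0.94 in WT, and Adm, the vasodilator adrenomedullin, by 1.44 in HET and 2.06 in WT. Hif1a transcripts changed by 0.29 in each. Under library totals 5 were higher and 4 lower in each genotype, Vegfa, Egln1 and Car9 lower in both.

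Ratios of 2 genes within a library do not depend on the scaling between libraries, and 5 were tested on deposited TPM by two-sided exact permutation tests, adjusted over 20 tests (smallest p the tests can give, 0.000155 for 8 against 8). Hk2 over Hk1 was 0.110 ± 0.0466 in HET cisplatin (SD, n = 8), 0.0192 ± 0.00974 in HET PBS (SD, n = 7), 0.105 ± 0.0304 in WT cisplatin (SD, n = 8) and 0.0152 ± 0.00879 in WT PBS (SD, n = 8). Its mean log2 differed by 2.14 in HET (exact permutation test, adjusted p 0.00466) and 2.47 in WT (exact permutation test, adjusted p 0.00155), with 1 HET cisplatin library, number 6, inside the PBS range. The size of this difference depends on the pseudocount of 0.1, since Hk2 read only 0.15 to 0.75 TPM in HET PBS and 0.16 to 0.76 in WT PBS. With a pseudocount of 1 it was 0.95 in HET and 1.08 in WT, and it still passed in each. Slc2a1 over Slc2a2 differed by 1.45 in HET (exact permutation test, adjusted p 0.00725) and 2.09 in WT (exact permutation test, adjusted p 0.00155). For this ratio the groups overlapped in HET and not in WT.

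Pfkp over Pfkl differed by 0.46 in HET and 0.64 in WT (exact permutation tests, adjusted p 0.0111 in HET and 0.00466 in WT), with overlapping groups in each. Ldha over Ldhb was 0.435 ± 0.0511 in HET cisplatin (SD, n = 8), 0.509 ± 0.0179 in HET PBS (SD, n = 7), 0.430 ± 0.0522 in WT cisplatin (SD, n = 8) and 0.513 ± 0.0263 in WT PBS (SD, n = 8), a difference in mean log2 of −0.23 in HET and −0.26 in WT (exact permutation tests, adjusted p 0.0113 in HET and 0.00725 in WT). Within the lactate dehydrogenase pair the A form thus made up less under cisplatin on average, with overlapping groups. HET cisplatin 8, at 0.545, lay above every HET PBS library (highest 0.534). WT cisplatin 6, at 0.535, lay inside the WT PBS range of 0.478 to 0.551. Pkm over Pklr differed by −0.096 in HET and 0.22 in WT and did not pass (exact permutation tests, adjusted p 0.848 in HET and 0.563 in WT). Among libraries with sample numbers in the 600 range alone (8, 4, 6 and 4 libraries in HET cisplatin, HET PBS, WT cisplatin and WT PBS), every difference that had passed kept its direction and none passed. With fewer libraries the smallest p an exact test can give is larger, so not passing here does not show that a difference was lost. Without the 5 libraries that go against their label, Hk2 over Hk1 alone still passed in HET (1.95, exact permutation test, adjusted p 0.0433), and the 4 differences that had passed in WT passed again.

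**Figure D4:**
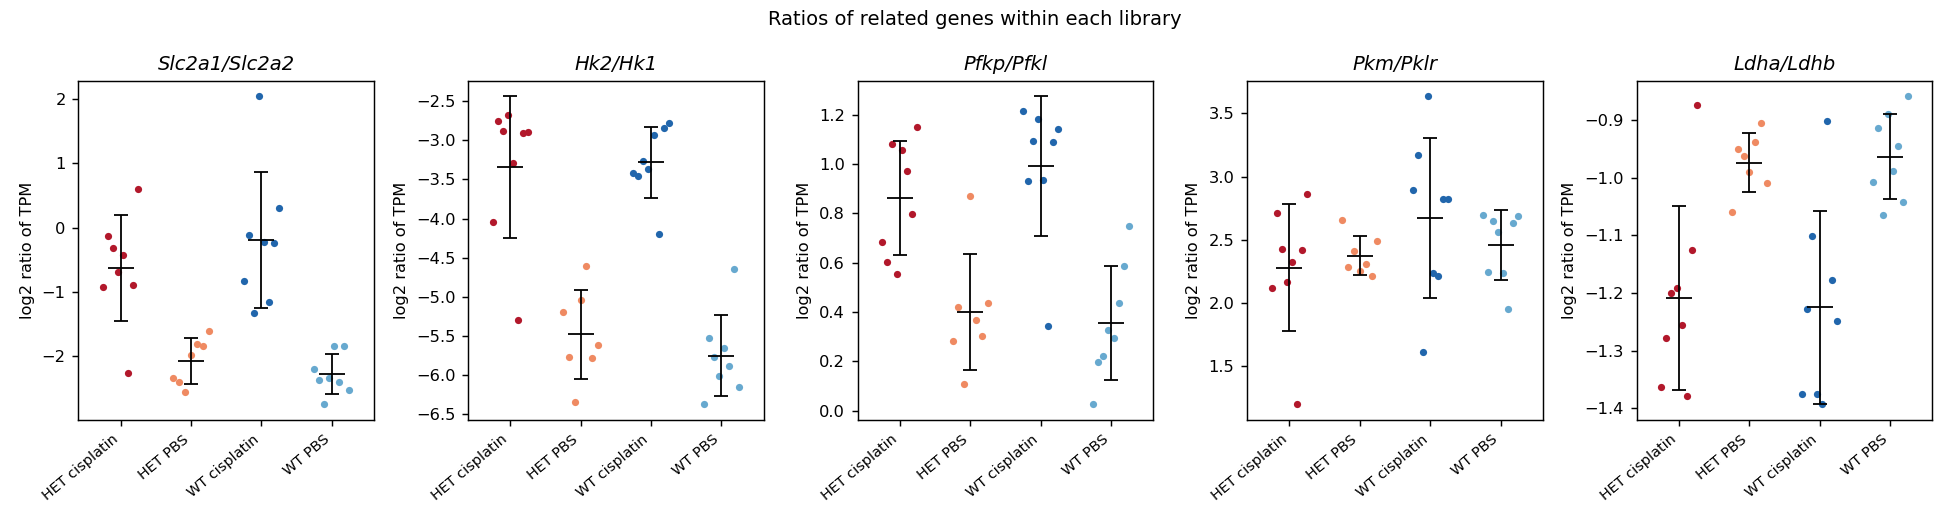
Log2 ratio of deposited TPM (pseudocount 0.1) for 5 gene pairs in each library, by group, with mean and SD. The means of Hk2/Hk1, Slc2a1/Slc2a2 and Pfkp/Pfkl are shifted up and that of Ldha/Ldhb down under cisplatin in both genotypes, while no shift of Pkm/Pklr passed. Cisplatin and PBS groups overlap except for Hk2/Hk1 and Slc2a1/Slc2a2 in WT.

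Ordered by mean TPM, Ldhb, Aldoa, Ldha and Pkm led in all 4 groups. Ldhb averaged 460 ± 54.1 TPM in HET cisplatin (SD, n = 8), 422 ± 19.3 in HET PBS (SD, n = 7), 443 ± 39.7 in WT cisplatin (SD, n = 8) and 423 ± 16.3 in WT PBS (SD, n = 8), so on the TPM scale, which carries no TMM scaling, its cisplatin means lay above its PBS means. Under cisplatin the ranges of Ldhb and Aldoa overlapped in both genotypes, and those of Ldha and Pkm in WT. Slc2a1 stood at place 5 in both cisplatin groups (39.7 ± 9.32 TPM in HET and 40.8 ± 15.1 in WT, SD, n = 8 each), overlapping Hk1 at place 6. In PBS kidneys it stood at place 8 in HET and 9 in WT, at 9.67 ± 0.946 TPM (SD, n = 7) and 9.28 ± 1.38 TPM (SD, n = 8), overlapping Pfkl. Hk2 was last in every group, at 4.01 ± 1.62 TPM in HET cisplatin (SD, n = 8), 0.396 ± 0.205 in HET PBS (SD, n = 7), 3.99 ± 1.29 in WT cisplatin (SD, n = 8) and 0.325 ± 0.192 in WT PBS (SD, n = 8).

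Genotype made no difference that passed the threshold for any of the 10 genes, under PBS, under cisplatin or in the interaction. Genome-wide, edgeR called 0 genes under PBS (968 at an unadjusted p under 0.05, DESeq2 5), 1 under cisplatin (0.00519% of genes; 1066 at an unadjusted p under 0.05, DESeq2 1) and 0 in the interaction (1079 at an unadjusted p under 0.05, DESeq2 0), so no gene past the threshold in 1 genotype alone was shown to differ between them in its response. The 95% intervals of HET minus WT under cisplatin were −0.38 to 0.31 for Slc2a1, −0.44 to 0.68 for Hk2, −0.24 to 0.06 for Pkm, −0.10 to 0.23 for Ldha and −0.07 to 0.20 for Ldhb on the log2 scale. Under PBS they were −0.29 to 0.43 for Slc2a1, −0.54 to 0.83 for Hk2, −0.15 to 0.16 for Pkm, −0.15 to 0.19 for Ldha and −0.11 to 0.17 for Ldhb. Pdk4 was the least determined, with −0.89 to 1.05 under cisplatin and −0.38 to 1.62 under PBS. Leaving out the 5 libraries at odds with their genotype label, the cisplatin log2 fold change of Pdk4 in HET was −1.96 (edgeR, adjusted p 0.00765). The largest shift of any other of the 10 genes in either genotype was −0.123, for Hk2 in HET.

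Within the cisplatin groups, the 10 genes were set against the mean log2 CPM of the 8 proximal tubule markers, 20 relations in all, chosen after seeing the data and computed on log2 CPM. For Ldhb in HET cisplatin Pearson's r was 0.96 (exact permutation test, adjusted p 0.0238) and Spearman's rho 0.905 (exact permutation test, adjusted p 0.0456, n = 8). Without the 2 libraries farthest from the median, r was 0.64 (exact permutation p 0.168, n = 6) and did not pass. In WT cisplatin the same r for Ldhb was 0.81 (exact permutation test, adjusted p 0.0521), and 0.66 (exact permutation p 0.140, n = 6) without the 2 farthest libraries. For Ldha in WT cisplatin r was 0.92 (exact permutation test, adjusted p 0.0238), rho 0.857 (exact permutation test, adjusted p 0.0536, n = 8), and r without the 2 farthest libraries 0.82 (exact permutation p 0.0389, n = 6). Libraries with more tubule marker RNA thus had more Ldha in WT, and in HET the same coefficient for Ldha was 0.54 (exact permutation test, adjusted p 0.245). Pkm went the other way, with r of −0.70 in HET and −0.83 in WT, which did not pass after adjustment (exact permutation tests, adjusted p 0.147 and 0.0729). Without the 2 farthest libraries, r for Pkm was −0.11 in HET (exact permutation p 0.833, n = 6). In WT it was then −0.64 (exact permutation p 0.160, n = 6). By rank alone, Aldoa in HET (rho 0.929, exact permutation test, adjusted p 0.0446) and Pfkl in WT (rho 0.881, exact permutation test, adjusted p 0.0483) also passed, and Slc2a1, Hk1, Hk2, Pfkp and Pdk4 passed by neither measure.

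**Figure D5:**
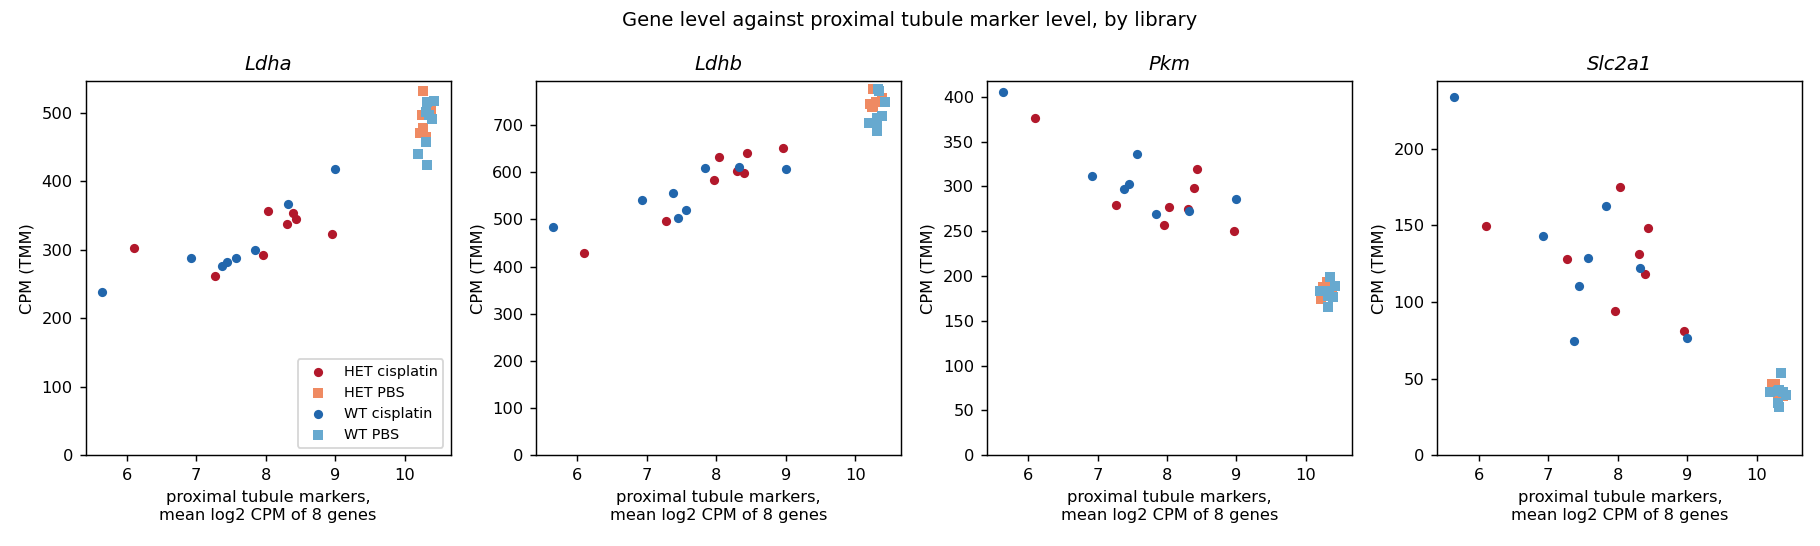
CPM (linear axes from 0) of Ldha, Ldhb, Pkm and Slc2a1 against the mean log2 CPM of 8 proximal tubule markers, 1 point per library. PBS libraries sit together at the right, and among cisplatin libraries the points for Ldha and Ldhb tend downward and those for Pkm upward toward the left, loosely for Ldha and Pkm in HET.

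The genes whose log2 CPM followed each of the 10 most closely over the 31 libraries, by the root mean square difference after centring among 13274 genes, were read as a description. Slc2a1 was nearest to Rras2 (0.228) and Ahnak (0.246), and Hk2 to Serpine2 (0.450) and Anxa3 (0.451). Pkm was nearest to Cd82 (0.1002) and Klc1 (0.105), Pfkp to Paqr5 (0.138) and Myo1e (0.145), and Hk1 to Ctnna1 (0.0901) and Rpl21 (0.0907). Ldha was nearest to Mdh2, the mitochondrial malate dehydrogenase (0.0900), and Slc25a3, the mitochondrial phosphate carrier (0.0903), and Ldhb to Enpp5 (0.0642) and Ndufa13, a complex I subunit (0.0652). Aldoa and Pfkl, which did not change past the threshold, lay near Rpl7a, with Gpi1 next to Aldoa (0.0816) and Eno1 next to Pfkl (0.117). Pdk4 had no close neighbour, the nearest being Slc25a33 (0.773) and Angptl4 (0.814).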

How the data were processed

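The authors deposited 1 table of 55487 genes with a count, a TPM and an FPKM column for each of 31 kidney libraries. Per the labels, RNA with an integrity number over 8 was made into libraries with a KAPA mRNA HyperPrep kit. Per the submitters' processing notes, fastp, STAR, featureCounts and GRCm38 (mm10) were used; the sources used here give neither versions nor the strand setting. Of the deposited counts 11.9% were not whole (tolerance 0.01), so they were treated as estimated counts and rounded. How the fractions arose with featureCounts, the tool named, was not established. The deposited FPKM was within 0.164% of a constant multiple of the deposited TPM in each library and was not used otherwise.

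edgeR 4.0.16 (R 4.3.3) was fitted to all 31 libraries (TMM, quasi-likelihood test, Benjamini-Hochberg over 19268 genes past its low-count filter, threshold 0.05). Levels are CPM with TMM scaling and TPM. Ratios used TPM with a pseudocount of 0.1 and exact permutation tests (scipy 1.17.1). DESeq2 1.42.0, limma 3.58.1, other scalings, filters, covariates and left-out libraries were alternatives. On simulated data the edgeR step recovered 61.2% of genes changed by 0.5 on the log2 scale, 78.7% of those changed by 1 and 97.9% of those changed by 2 in the WT comparison, over 19268 genes. Of the genes called, 4.67% were false. The simulation took means and spread from WT PBS libraries and changed 98, 47 and 47 genes by these sizes, in both directions. It cannot test the scaling in the real data, where 59.0% of genes passed in HET and 63.2% in WT.

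All 10 genes are named, with any gene of 9 pathway lists (76 genes) and the 2 genes most like each. The genes, lists and 17 marker lists were chosen with earlier results of these data known. Promoters were searched over the 250 bases before the start, and protein sequences were not used here. A gene and a ratio of the planned lists are not reported here.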

Additional observations from a re-analysis of the deposited data

Results flagged for a closer look

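Of 60 groups of 7 or 8 libraries checked (the CPM of the 10 genes and the 5 log2 ratios), 7 held 1 library far from the others, where chance alone flags about 3. The groups are not independent, since the ratios use genes also checked alone and flags recur in WT cisplatin 6 and HET PBS 4. The excess over 3 is therefore no test. Hk1 read 173 CPM in HET cisplatin 5, against 143 to 155 in the other HET cisplatin libraries. Pfkl read 40.5 CPM in HET PBS 4, against 48.6 to 52.7 in the other HET PBS libraries. In WT cisplatin 6, Pfkl read 74.1 CPM, against 38.2 to 53.4 in the rest of its group, and Aldoa read 749 CPM, against 488 to 577. The log2 ratio of Pfkp over Pfkl was 0.34 in WT cisplatin 6, against 0.93 to 1.22 in the rest of its group. Pdk4 read 360.1 CPM in HET PBS 4, against 75.1 to 164 in the other HET PBS libraries. The log2 ratio of Pkm over Pklr was 1.20 in HET cisplatin 6, against 2.11 to 2.86 in the other HET cisplatin libraries. WT cisplatin 6 and HET cisplatin 6 are the cisplatin libraries nearest to PBS on the first principal component.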

How the results depend on the processing

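For single genes, 622 of 640 values under other settings and 1546 of 1550 with 1 library left out kept their call. For the ratios these were 89 of 100 and 310 of 310. A value that passed in neither fit counted as kept even where its sign changed. The totals include the genotype and interaction comparisons, in which no gene or ratio passed. All changes of genes and ratios fell in the cisplatin comparisons. The cause of the changes below was not tested. With library totals 1 of the 10 genes was lower in HET and 1 in WT, Aldoa reversed (0.30 in HET, 0.28 in WT), as did Ldhb in HET (0.038) and Pfkl in WT (0.35), and 11992 genes were higher and 2400 lower in HET, 11831 higher and 2862 lower in WT. With limma on log2(TPM + 1) 1 gene was lower in HET (Pdk4) and 1 in WT (Ldha), Ldha did not pass in HET (−0.12, adjusted p 0.159), Aldoa reversed (0.38 in HET, 0.32 in WT), as did Ldhb (0.12 in HET, 0.064 in WT) and Pfkl in WT (0.40), and 12321 genes were higher and 1983 lower in HET, 12055 higher and 2439 lower in WT.

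With 1 library left out, 2 to 4 of the 10 genes were lower in WT (4 without WT cisplatin 6), and 0 to 2 genes of all were higher in HET than WT under PBS. Chosen after seeing the data, leaving out the 2 libraries that stand apart gave 4 lower in WT. Leaving out the 5 against their label gave 2 genes higher in HET than WT under PBS and 1 lower under cisplatin, and took Ldha over Ldhb (−0.24), Pfkp over Pfkl (0.44) and Slc2a1 over Slc2a2 (1.40) in HET past no threshold. HET against WT, DESeq2 called 3 higher and 2 lower under PBS; under cisplatin 0 were higher with at least 50 counts in 7 libraries, and 1 lower with limma voom quality weights. Among the fewer libraries with sample numbers in the 600 range, where the smallest possible p is larger, no ratio passed: Ldha over Ldhb −0.25 in HET and −0.24 in WT, Hk2 over Hk1 1.92 in HET and 2.36 in WT, Pfkp over Pfkl 0.37 in HET and 0.45 in WT, Slc2a1 over Slc2a2 1.18 in HET and 2.05 in WT. No paired analysis was possible because the labels give the groups no shared replicate numbers.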
